A study of Mus musculus with 12 samples.

Results

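Aldo-keto reductases and aldehyde dehydrogenases were followed as a set of 9 named genes: the reductases Akr1b3, Akr1b8 and Akr1b10 and the dehydrogenases Aldh1a1, Aldh2, Aldh3a1, Aldh3a2, Aldh7a1 and Aldh9a1. They were taken by symbol from the 24318 genes of the deposited table, and all 9 were found. Polyadenylated RNA had been sequenced from 12 libraries of immortalized mouse embryonic fibroblasts, 3 in each of 4 groups. The groups were T-N2G-expressing cells with 100 µM diethyl maleate (DEM), mock cells with 100 µM DEM, T-N2G-expressing cells with vehicle, and mock cells with vehicle, each treated for 12 h. All 4 groups carry the genotype MafF-/-::MafG-/-::MafK-/-, so the mock cells also lack the small Maf proteins. T-N2G is known from the study as Nrf2 tethered to MafG in a single chain. What drives its expression, and whether either cell population is 1 clone, is not given in the sources used here. Nothing in the labels says that the 3 libraries of a group came from separate cultures, so p-values measure the spread between these libraries, which may be technical.

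Aldehydes form from lipid peroxidation, sugar and amino acid breakdown and alcohol metabolism, and they react with proteins and DNA. Aldo-keto reductases use NADPH to reduce the carbonyl group of aldehydes and ketones to an alcohol, whereas aldehyde dehydrogenases use NAD or NADP to oxidize aldehydes to carboxylic acids. Nrf2 is a stress-responsive transcription factor that binds antioxidant response elements as a heterodimer with a small Maf protein, and DEM is an electrophile that depletes glutathione and stabilizes Nrf2. In human cells AKR1B10 is a widely used NRF2 target gene, and a role of Nrf2 in mouse has been described for several reductases of the wider superfamily.

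The libraries held 18863560 to 23095692 fragments and 14817 to 15141 genes with a fragment. Nfe2l2, which encodes Nrf2, averaged 556 CPM (fragments scaled to effective library size) in DEM-treated T-N2G cells against 62.4 CPM in DEM-treated mock cells, and 599 CPM in vehicle-treated T-N2G cells against 53.2 CPM in vehicle-treated mock cells. Mafg averaged 121 against 0.877 CPM with DEM and 137 against 0.514 CPM with vehicle in the same order, so transcripts of both parts of the construct were high in the libraries labelled T-N2G. All 9 fibroblast markers averaged over 10 CPM. Of 5 epithelial markers only Krt19 did (68.1 to 142 CPM), Epcam stayed at or under 0.141 CPM, and none of the endothelial, leukocyte, muscle and hepatocyte markers averaged over 10 CPM. Among these Kdr ranged from 3.84 to 12.4 CPM, Cd14 from 2.97 to 5.71 CPM, Cd68 from 1.34 to 2.32 CPM and Csf1r up to 0.525 CPM, Ptprc stayed at or under 0.0983 CPM, and Adgre1 was at 0. The summed level of 4 Y-linked genes lay at 20.7 to 22.1 CPM in DEM-treated T-N2G cells against 11.5 to 13.9 CPM in DEM-treated mock cells, and at 22.8 to 24.9 CPM in vehicle-treated T-N2G cells against 13.7 to 16.2 CPM in vehicle-treated mock cells. This difference runs with every comparison of T-N2G with mock cells below, and its part in them was not tested.

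Per transcript length, the 9 genes spanned a wide range. By fragments as assigned, Aldh2, the mitochondrial dehydrogenase of acetaldehyde and 4-hydroxynonenal, was the most abundant, with 40.8 ± 7.98 FPKM (SD over 12 libraries). Aldh7a1 followed with 22.1 ± 2.00 FPKM, Aldh3a2 with 17.6 ± 1.33 FPKM and Aldh9a1 with 15.4 ± 0.956 FPKM. The reductases were lower as assigned, at 5.48 ± 1.80 FPKM for Akr1b8, 3.46 ± 2.20 FPKM for Akr1b3 and 2.72 ± 1.08 FPKM for Akr1b10. Aldh1a1 reached 0.537 ± 0.216 FPKM, and Aldh3a1 0.00842 ± 0.0152 FPKM. Neighbours in this order kept it in 11 or 12 of the 12 libraries, except that Akr1b8 exceeded Akr1b3, and Akr1b3 exceeded Akr1b10, in only 8 libraries each, so Akr1b3 as assigned did not separate from either beyond its spread. Most fragments of Akr1b3 and its processed pseudogene Gm6644 (99.7% identity) were given to Gm6644. Their sum averaged from 87.25 CPM in DEM-treated mock cells to 120.7 CPM in vehicle-treated T-N2G cells. The place of Akr1b3 in this order, also relative to Aldh2, therefore cannot be told.

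**Figure D1:**
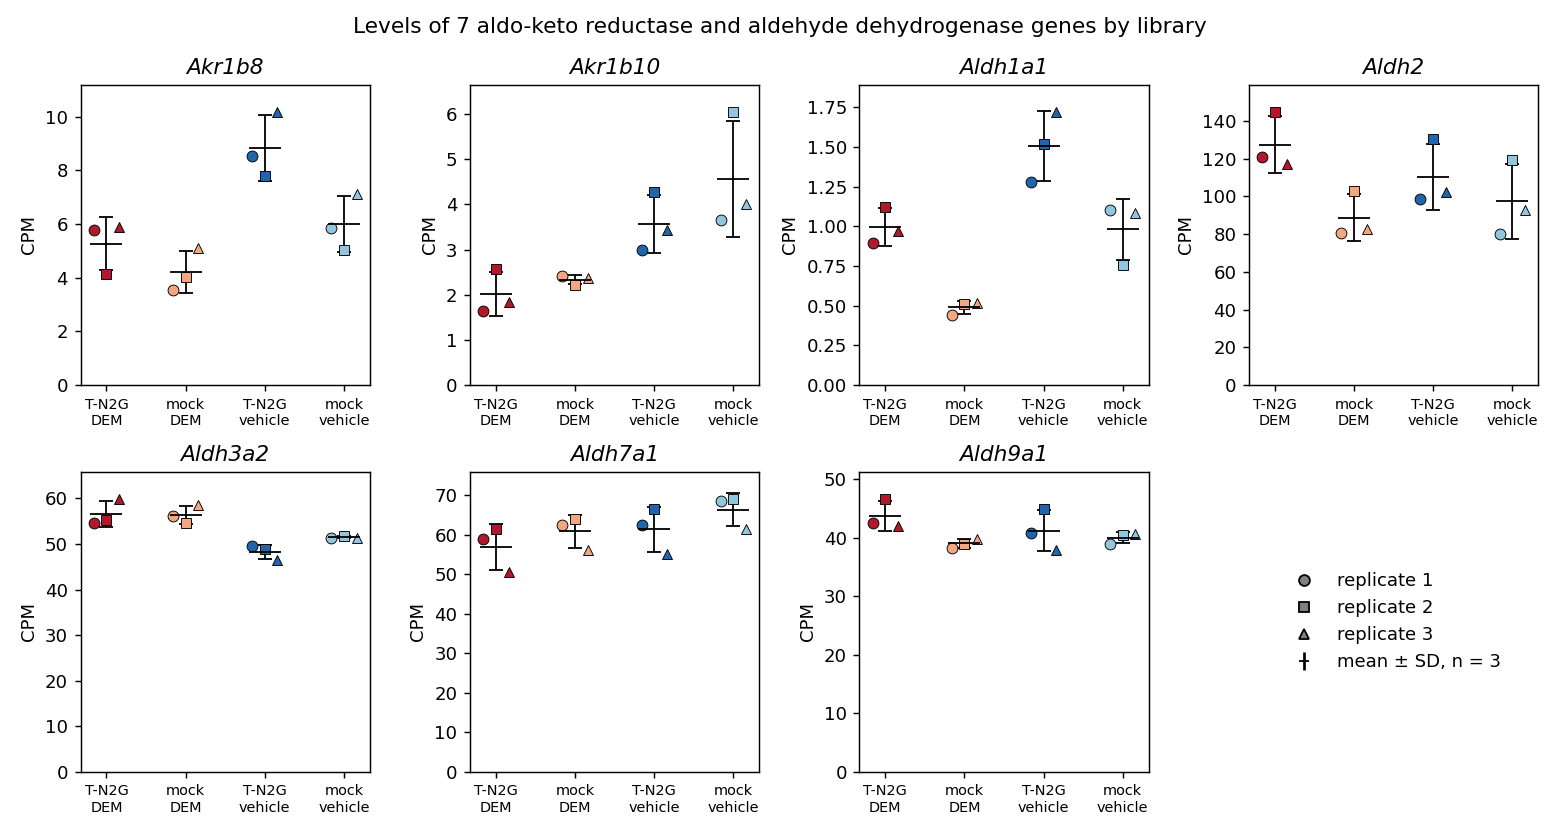
Level of 7 genes in each library, in CPM on a linear axis starting at 0, with replicate 1, 2 and 3 as circle, square and triangle and the mean ± SD of the 3 libraries as a cross. Akr1b8, Akr1b10 and Aldh1a1 have lower means with DEM than with vehicle in both cell types, and Aldh2 lies between 117 and 145 CPM in DEM-treated T-N2G cells, above the 80.4 to 103 CPM of DEM-treated mock cells.

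Of the 9 genes, 8 had enough fragments to be tested, all but Aldh3a1. With DEM, in T-N2G cells 2 of the 8 fell (Akr1b8 and Akr1b10) and 1 rose (Aldh3a2), and in mock cells 2 fell (Akr1b10 and Aldh1a1) and none rose. A call is an adjusted p under 0.05 (edgeR, Benjamini-Hochberg over all 12469 tested genes). The background of calls in T-N2G cells was 7.55% of all tested genes lower and 10.1% higher, and in mock cells 6.18% lower and 7.76% higher. Between T-N2G and mock cells with DEM, 1 of the 8 was called higher in T-N2G cells in this fit, which leaves out the replicate numbers (Aldh1a1, background 2.61% higher and 1.11% lower). With vehicle 0 of the 8 were called in either direction by edgeR, against a background of 0.305% higher and 0.00802% lower. There 2 had an unadjusted p under 0.05, and DESeq2 and limma each called 0. The difference between the DEM effects of T-N2G and mock cells was called for 0 of the 8 by edgeR, DESeq2 and limma, with 0 at an unadjusted p under 0.05 (background 0.417% higher in T-N2G cells and 0.016% lower).

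Replicate numbers paired the libraries, and a fit with the number as a block called more genes. It called 3 of the 8 lower and 2 higher with DEM in T-N2G cells (background 22.2% lower and 22.8% higher), and 5 lower and 1 higher with DEM in mock cells (21.9% and 20.9%). It called 2 of the 8 higher in T-N2G cells relative to mock cells with DEM (background 10.3% higher and 9.32% lower) and 2 higher with vehicle (3.06% and 3.24%). It called 1 with a higher DEM effect in T-N2G cells (1.82% higher and 0.978% lower). The median log2 fold change of the 8 genes, beside that of all tested genes, was -0.012 against -0.0048 for DEM in T-N2G cells and -0.32 against -0.012 for DEM in mock cells. It was 0.24 against -0.0050 for T-N2G over mock with DEM and -0.025 against -0.0015 with vehicle. These medians of the 8 genes include Akr1b3, whose assigned fragments could not be read as a level. Without Akr1b3 the middle value was -0.11 (Aldh7a1) for DEM in T-N2G cells and -0.13 (Aldh2) for DEM in mock cells. For T-N2G over mock it was 0.16 with DEM and 0.042 with vehicle (Aldh9a1 in both). The value with vehicle thus changed sign. In bulk RNA, fewer cells of a type and less RNA per cell cannot be told apart. The comparisons share groups, so their values are given side by side and no likeness between them is drawn.

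**Figure D2:**
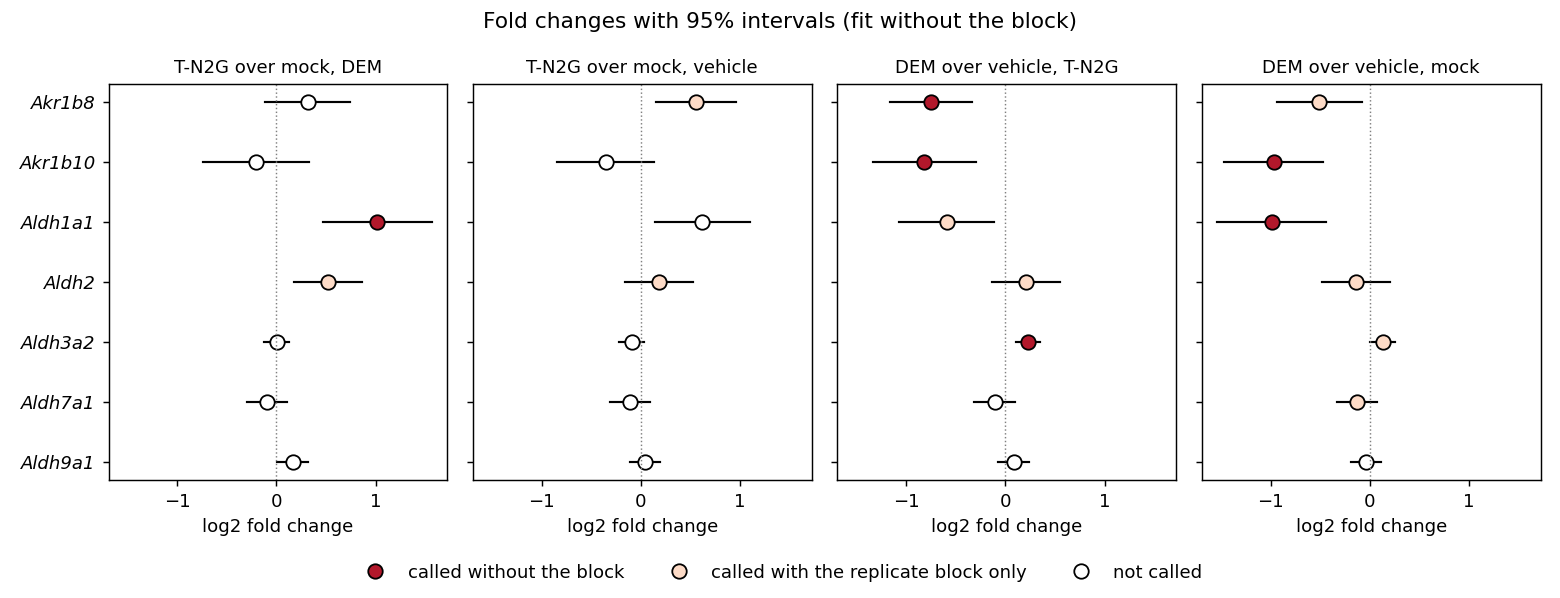
Log2 fold change (x axis) of 7 genes in the 4 comparisons, as points with 95% intervals from the fit without the block. Dark points were called in that fit, light points with the replicate block only, and open points in neither. Dark points in the DEM panels lie below 0 for Akr1b8, Akr1b10 and Aldh1a1 and above 0 for Aldh3a2. Light points there lie below 0 for Akr1b8 and Aldh7a1 in mock cells and Aldh1a1 in T-N2G cells, above 0 for Aldh3a2 in mock cells, and on either side for Aldh2.

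Akr1b8, an aldehyde and retinal reductase first described in mouse fibroblasts as a gene induced by fibroblast growth factor, was at 5.80, 4.12 and 5.89 CPM in DEM-treated T-N2G cells, against 8.56, 7.77 and 10.2 CPM in vehicle-treated T-N2G cells. The 2 groups did not overlap, and the DEM-treated libraries were the lower. Akr1b8 fell by 0.75 ± 0.19 on the log2 scale (SE, 1.68-fold lower, edgeR adjusted p = 0.0190). In mock cells the levels were 3.53, 4.02 and 5.09 CPM with DEM and 5.85, 5.05 and 7.12 CPM with vehicle. There the highest DEM library just overlapped the lowest vehicle library, and the log2 fold change of -0.51 ± 0.19 was not called (edgeR adjusted p = 0.103), although it was with the replicate block (adjusted p = 0.00323). T-N2G cells with vehicle lay above mock cells with vehicle in all 3 libraries and all 3 pairs. That log2 difference of 0.56 ± 0.19 was called with the block alone (adjusted p = 0.00422, against 0.517 without it). With DEM it was 0.31 ± 0.20 and was called in neither fit (adjusted p = 0.534, and 0.0894 with the block). Leaving out T-N2G DEM replicate 2 ended the call for DEM in T-N2G cells (log2 fold change -0.60, edgeR adjusted p = 0.0646) as did leaving out T-N2G vehicle replicate 3 (-0.64, 0.0705).

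Akr1b10, a reductase whose human namesake reduces retinal and isoprenyl aldehydes, is the next protein-coding gene after Akr1b8 on chromosome 6 in RefSeq and shares 84.7% of its coding bases. Its levels were 1.64, 2.58 and 1.84 CPM in DEM-treated T-N2G cells against 3.00, 4.27 and 3.44 CPM in vehicle-treated T-N2G cells. In mock cells they were 2.40, 2.22 and 2.37 CPM with DEM against 3.65, 6.04 and 4.01 CPM with vehicle. In both cell types each DEM library lay below each vehicle library. Akr1b10 fell by 0.82 ± 0.24 in T-N2G cells (log2, SE, edgeR adjusted p = 0.0344) and by 0.97 ± 0.23 in mock cells (adjusted p = 0.0183). T-N2G and mock cells overlapped under both treatments, with a log2 difference of -0.20 ± 0.25 with DEM and -0.36 ± 0.22 with vehicle (95% intervals -0.74 to 0.33 and -0.84 to 0.13, adjusted p = 0.798 and 0.924). These calls rest on few fragments, 122 over the 3 libraries of DEM-treated T-N2G cells and 152 over those of DEM-treated mock cells. In T-N2G cells the call ended on leaving out T-N2G DEM replicate 1 or 3 or T-N2G vehicle replicate 2 or 3 (edgeR adjusted p = 0.120, 0.101, 0.106 and 0.0673). In mock cells it ended on leaving out mock DEM replicate 1, 2 or 3 or mock vehicle replicate 2 (adjusted p = 0.0524, 0.0620, 0.0516 and 0.0627), with log2 fold changes from -0.99 to -0.71.

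Because Akr1b8 and Akr1b10 are neighbours that both fell with DEM in T-N2G cells, the bases just before their annotated starts are shown, from RefSeq (GRCm38.p6, while the expression files use mm9), + strand, 223 bases at chr6:34353896-34354118 and 221 bases at chr6:34383997-34384217.
Akr1b8: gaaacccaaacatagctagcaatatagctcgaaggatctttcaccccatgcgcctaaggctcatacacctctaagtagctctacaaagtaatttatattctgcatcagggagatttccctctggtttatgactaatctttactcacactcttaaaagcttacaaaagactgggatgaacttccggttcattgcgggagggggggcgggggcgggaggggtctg
Akr1b10: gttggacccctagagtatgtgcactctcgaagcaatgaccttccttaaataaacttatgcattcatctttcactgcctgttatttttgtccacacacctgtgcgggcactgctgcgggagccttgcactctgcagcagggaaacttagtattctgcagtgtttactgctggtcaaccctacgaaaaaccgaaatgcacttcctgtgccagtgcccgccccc
The antioxidant response element core TGACNNNGC and the AP-1 and Maf type core TGACTCA were searched on both strands, with overlaps of the 2 motifs allowed. Neither is in the 250 bases before the start of either gene. Of 32851 mouse promoters of the same length 10.2% hold TGACNNNGC and 4.46% hold TGACTCA.

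**Figure D3:**
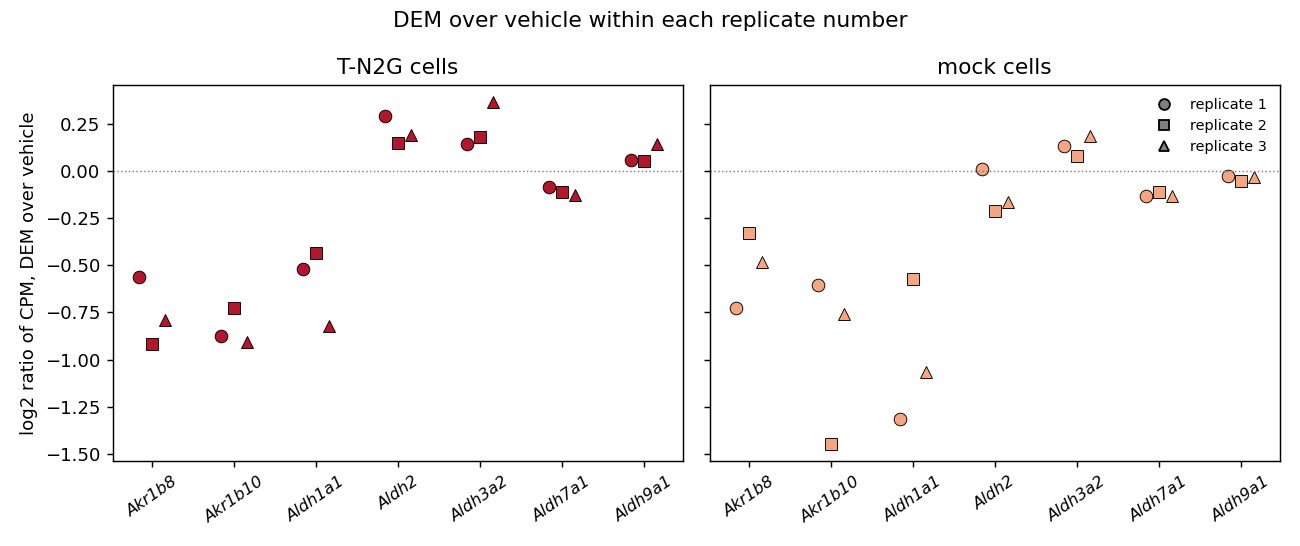
Log2 ratio of CPM (y axis) of DEM over vehicle within each replicate number, for 7 genes in T-N2G cells and in mock cells, with replicates 1, 2 and 3 as circle, square and triangle. All 6 ratios of Akr1b8, Akr1b10 and Aldh1a1 lie below 0, all 6 of Aldh3a2 lie above 0, and those of Aldh2 are positive in all 3 pairs of T-N2G cells and in 1 of 3 of mock cells.

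Akr1b3, aldose reductase, reduces glucose to sorbitol as the entry step of the polyol pathway. Its assigned fragments could not be read as a level. They ranged from 0 in T-N2G vehicle replicate 2 and 0.02 in mock DEM replicate 1 to 167 in mock vehicle replicate 3, with 11 of 12 values not whole. Levels were 2.05 to 7.13 CPM in DEM-treated T-N2G cells, 0 to 5.55 CPM in DEM-treated mock cells, 0 to 6.54 CPM in vehicle-treated T-N2G cells and 4.15 to 7.88 CPM in vehicle-treated mock cells. None of its 5 contrasts was called on all libraries, with or without the block. In the GENCODE M21 annotation 6 other genes match its 948 coding bases over 90% identity, 5 of them processed pseudogenes. Of these only Gm6644, at 99.7% identity, is in the deposited table, where it held 1620 to 2663 fragments in every library. The share of the pair given to Akr1b3 ran from 0% to 7.01%.

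The sum of Akr1b3 and Gm6644 was steadier, and its use was chosen after these values were seen. It was 102, 88.6 and 96.6 CPM in DEM-treated T-N2G cells, against 133, 114 and 115 CPM in vehicle-treated T-N2G cells. In mock cells it was 90.6, 80.4 and 90.7 CPM with DEM, against 133, 102 and 119 CPM with vehicle. Every DEM library lay below every vehicle library of its cell type. The sum fell with DEM by 0.33 ± 0.10 in T-N2G cells (log2, SE, edgeR adjusted p = 0.0374) and by 0.43 ± 0.10 in mock cells (adjusted p = 0.0159). T-N2G over mock was 0.13 ± 0.10 with DEM and 0.04 ± 0.10 with vehicle and was not called (adjusted p = 0.624 and 0.992). How much of this signal is Akr1b3 transcript cannot be told apart from that of its copies.

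**Figure D4:**
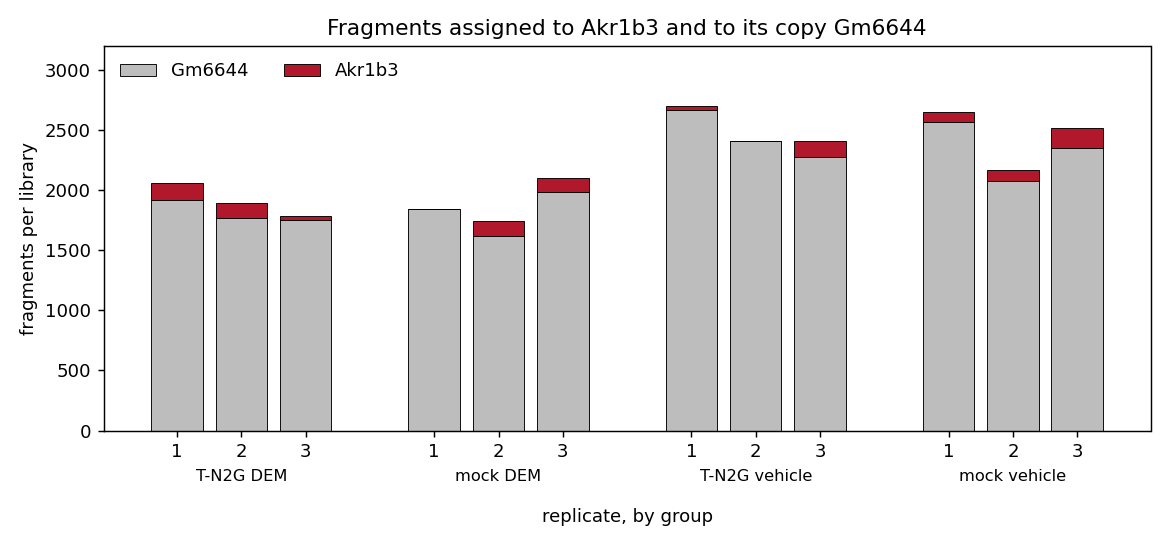
Fragments (y axis, linear from 0) assigned to Gm6644 (grey) and Akr1b3 (red) in each of the 12 libraries, by group and replicate. Akr1b3 takes 0% to 7.01% of each bar, and every DEM bar of a cell type ends below every vehicle bar of it.

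Aldh1a1, a cytosolic dehydrogenase that makes retinoic acid from retinal, was the one gene of the set called between T-N2G and mock cells in the fit without the block. It had 0.892, 1.12 and 0.972 CPM in DEM-treated T-N2G cells against 0.442, 0.509 and 0.518 CPM in DEM-treated mock cells. The groups did not overlap, at 60 against 32 fragments over 3 libraries each. Aldh1a1 was 2.02-fold higher in T-N2G cells (log2 fold change 1.02 ± 0.25, SE, 95% interval 0.47 to 1.57, edgeR adjusted p = 0.0469, and 0.0167 with the block). With vehicle it had 1.28, 1.52 and 1.72 CPM in T-N2G cells against 1.10, 0.755 and 1.09 CPM in mock cells. These groups did not overlap either, but the log2 difference of 0.62 ± 0.22 was called in neither fit (adjusted p = 0.574, and 0.119 with the block). The call with DEM was lost without any 1 library other than mock vehicle replicate 2, with log2 fold changes of 0.91 to 1.09 and adjusted p of 0.0569 to 0.148. DESeq2 did not call it (adjusted p = 0.138), nor did limma on log2(FPKM + 1) (adjusted p = 0.0520), edgeR with no filter on low counts (0.0940), or the block on replicates 1 and 2 only (0.0772).

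Aldh1a1 was also lower with DEM. In mock cells it fell by 0.99 ± 0.25 (log2, SE, 1.98-fold lower, edgeR adjusted p = 0.0244). In T-N2G cells the log2 fold change was -0.59 ± 0.22, called with the block (adjusted p = 0.0455) but not without it (0.0856). The difference of the 2 DEM effects was 0.40 ± 0.33 (95% interval -0.33 to 1.13) and was not called (adjusted p = 1.00, 0.775 with the block). The call in mock cells was lost without mock DEM replicate 1, 2 or 3 or mock vehicle replicate 1 or 3 (edgeR adjusted p = 0.0795, 0.0688, 0.0615, 0.0721 and 0.0777), with log2 fold changes of -1.03 to -0.90, and with DESeq2 (0.0665). Aldh1a7 shares 91.6% of the coding bases of Aldh1a1 and averaged 0.719 CPM in DEM-treated T-N2G cells against 0.408 CPM in DEM-treated mock cells. The count of Aldh1a1 was not whole in 0 libraries. Whether fragments were divided between these genes was not tested. Aldh1a1 has 2 annotated starts, and which of them these cells use was not tested. The first has a match to TGACTCA, in capitals, in the 250 bases before it (chr19:20492333-20492582, + strand, GRCm38.p6). The second has neither motif in the 250 bases before it (chr19:20601718-20601967).
Aldh1a1: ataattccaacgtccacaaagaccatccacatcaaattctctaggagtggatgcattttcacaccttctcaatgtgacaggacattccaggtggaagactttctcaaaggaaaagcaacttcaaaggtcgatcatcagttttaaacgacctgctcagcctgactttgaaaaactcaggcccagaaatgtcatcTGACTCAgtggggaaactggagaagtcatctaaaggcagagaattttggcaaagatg

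Aldh2 was at 121, 145 and 117 CPM in DEM-treated T-N2G cells against 80.4, 103 and 82.8 CPM in DEM-treated mock cells. The groups did not overlap, and the ratio was similar in all 3 pairs, at log2 0.49 to 0.59. The log2 fold change was 0.52 ± 0.16 (SE), called with the block (edgeR adjusted p = 5.52e-07) and with DESeq2 (0.0262) but not in the fit without the block (0.106). With vehicle Aldh2 was at 98.4, 130 and 102 CPM in T-N2G cells against 79.9, 119 and 92.9 CPM in mock cells. These ranges overlapped, and the log2 difference of 0.18 ± 0.16 was called with the block only (adjusted p = 0.0346, 0.979 without it). Replicate 2 was the highest of its group in all 4 groups.

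Aldh2 was also the gene of the set whose DEM effect differed between the cell types when pairs were kept. With DEM the log2 fold change was 0.21 ± 0.16 in T-N2G cells and -0.13 ± 0.16 in mock cells, neither called without the block (edgeR adjusted p = 0.396 and 0.607). With the block the values were 0.21 ± 0.05 (adjusted p = 0.00229) and -0.13 ± 0.05 (0.0498). The difference was 0.34 ± 0.07 with the block (adjusted p = 0.0104) and 0.34 ± 0.22 without it (1.00). The 3 within-pair ratios of T-N2G cells, 1.11 to 1.23, lay above the 3 of mock cells, 0.863 to 1.01.

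Aldh3a2, the fatty aldehyde dehydrogenase of the endoplasmic reticulum, whose human loss causes Sjögren-Larsson syndrome, was the one gene of the set that rose with DEM in the fit without the block. It had 54.7, 55.2 and 59.9 CPM in DEM-treated T-N2G cells against 49.5, 48.8 and 46.5 CPM in vehicle-treated T-N2G cells. The groups did not overlap, and the rise was small, 0.23 ± 0.06 on the log2 scale (SE, 1.17-fold, edgeR adjusted p = 0.0184). In mock cells it had 56.2, 54.6 and 58.5 CPM with DEM against 51.3, 51.7 and 51.4 CPM with vehicle. There the log2 fold change of 0.13 ± 0.06 was called with the block (adjusted p = 0.0414) but not without it (0.144). T-N2G and mock cells differed in log2 by 0.00 ± 0.06 with DEM and by -0.09 ± 0.06 with vehicle (95% intervals -0.12 to 0.13 and -0.22 to 0.03), called in neither fit. The call in T-N2G cells ended on leaving out T-N2G DEM replicate 3 (0.18, adjusted p = 0.0823) or T-N2G vehicle replicate 3 (0.20, 0.0786).

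Aldh7a1, antiquitin, acts in lysine breakdown, and Aldh9a1 makes the butyrobetaine precursor of carnitine. Both were abundant and steady. Aldh7a1 had 58.9, 61.5 and 50.5 CPM in DEM-treated T-N2G cells, 62.5, 63.9 and 56.2 CPM in DEM-treated mock cells, 62.5, 66.5 and 55.2 CPM in vehicle-treated T-N2G cells and 68.6, 69.1 and 61.6 CPM in vehicle-treated mock cells. In all 4 comparisons the groups overlapped, and the log2 fold changes ran from -0.13 to -0.095. With the block the fall with DEM in mock cells passed (-0.13 ± 0.04, edgeR adjusted p = 0.0273). Aldh9a1 had 42.5, 46.7 and 42.0 CPM in DEM-treated T-N2G cells against 38.2, 39.0 and 39.9 CPM in DEM-treated mock cells, which did not overlap. That log2 difference was 0.16 ± 0.07 and was called in neither fit (adjusted p = 0.291, 0.0538 with the block). With vehicle the levels were 40.8, 44.9 and 38.0 CPM in T-N2G cells against 39.0, 40.5 and 40.7 CPM in mock cells, and none of the other contrasts of Aldh9a1 was called. Its promoter is the one among the 5 genes of the set found in the RefSeq promoter table with a match to TGACNNNGC, in capitals (chr1:167349741-167349990, + strand, GRCm38.p6).
Aldh9a1: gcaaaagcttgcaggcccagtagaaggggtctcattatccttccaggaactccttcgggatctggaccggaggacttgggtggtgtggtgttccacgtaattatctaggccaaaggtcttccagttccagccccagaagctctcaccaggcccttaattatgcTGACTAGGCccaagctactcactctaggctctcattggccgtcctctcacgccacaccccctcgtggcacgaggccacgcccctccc

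Aldh3a1, a corneal crystallin and dehydrogenase of aromatic aldehydes, whose human counterpart is an NRF2-linked gene in tumours, was at the limit of detection. It had 1 fragment in 1 library of DEM-treated T-N2G cells, 0 in all 3 of DEM-treated mock cells, 1 in 1 of vehicle-treated T-N2G cells and 1 in 1 of vehicle-treated mock cells. That is 3 fragments in all, and 9 of 12 libraries at 0. A count of 0 allows up to 0.130 to 0.159 CPM at these depths (3 counts, counting error only), so no fold is given.

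Within the set, Akr1b8 and Aldh1a1 varied most alike over the 12 libraries (r = 0.83 in log2 CPM), then Aldh2 and Aldh9a1 (r = 0.82). Aldh3a2 ran opposite to Akr1b8 (r = -0.72) and Aldh1a1 (r = -0.70). These are descriptions over 12 libraries in 4 groups, with the group effects in them. Of all tested genes the 3 most like Akr1b8 were Atp1b1, Snrnp40 and Cyp1a1 (r = 0.956, 0.928 and 0.920), and those most like Akr1b10 were Fut10, Ufsp2 and Dcxr (0.963, 0.959 and 0.959). Those most like Aldh1a1 were Psma1, Rtkn2 and Tuba1a (0.957, 0.945 and 0.930), and those most like Aldh3a2 were Fam3a, Nfatc3 and Msl3 (0.950, 0.933 and 0.931).

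For this and the following lists, the background of calls without the block for T-N2G over mock was 2.61% higher and 1.11% lower with DEM. With vehicle it was 0.305% and 0.00802%. For DEM it was 10.1% and 7.55% in T-N2G cells and 7.76% and 6.18% in mock cells, and for the difference of DEM effects 0.417% and 0.016%. Of 17 other aldo-keto reductases 7 were tested, and with DEM 2 exceeded their mock level in T-N2G cells. Akr1c14, a hydroxysteroid dehydrogenase, was at 0.495, 0.984 and 1.57 CPM against 0, 0.139 and 0.0431 CPM in DEM-treated mock cells (60 against 4 fragments over 3 libraries each, log2 fold change 3.91 ± 0.82, SE, edgeR adjusted p = 0.0185). That log2 fold change ran from 3.41 to 5.12 when 1 library was left out, the highest without mock DEM replicate 2. Akr1c14 passed the low-count filter only through DEM-treated T-N2G cells. It had 15 fragments in vehicle-treated T-N2G cells and 14 in vehicle-treated mock cells. Its calls thus compare the group that let it be tested with groups that would not have, and the counts of this list include it. Kcnab1, the potassium channel beta subunit of this fold, was at 27.7, 17.3 and 29.6 CPM against 10.4, 5.46 and 9.49 CPM (1.56 ± 0.35, adjusted p = 0.0256). With DEM in T-N2G cells Akr1c14 rose too (2.04 ± 0.65, adjusted p = 0.0483), and 0 were called for DEM in mock cells or for T-N2G with vehicle, where 0 and 1 had an unadjusted p under 0.05 and DESeq2 called 0 in each. The call of Akr1c14 for T-N2G over mock was lost without T-N2G DEM replicate 3 or mock DEM replicate 1 or 3, and that of Kcnab1 without T-N2G DEM replicate 1 or 3 or any mock DEM library (adjusted p up to 0.101 and 0.110). The rise of Akr1c14 with DEM was lost without any 1 library other than T-N2G DEM replicate 1 and T-N2G vehicle replicate 3 (up to 0.175), where the log2 fold change ran from 1.55 to 2.99, the highest without T-N2G vehicle replicate 3. It was also lost with DESeq2 and with no filter on low counts. Akr1b7, the closest relative of Akr1b10 among these genes at 89.2% of coding bases, was too low to be tested and stayed at or under 0.0540 CPM. With the replicate block 3 of the 7 were called higher in T-N2G cells with DEM and 1 with vehicle (background 10.3% and 3.06% higher). It called 3 higher with DEM in T-N2G cells and 1 in mock cells (22.8% and 20.9%), and none lower in these comparisons. The DEM effect was then higher in T-N2G cells for 2 (background 1.82%), against 0 without the block. Without it 1 had an unadjusted p under 0.05, and DESeq2 called 0.

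Of 14 other aldehyde dehydrogenases 9 were tested. Aldh1l2, a mitochondrial folate enzyme, rose with DEM in mock cells, to 99.2, 103 and 101 CPM against 62.8, 83.7 and 67.4 CPM with vehicle (0.51 ± 0.15, edgeR adjusted p = 0.0489). No other of these 9 was called in any contrast by edgeR without the block. At an unadjusted p under 0.05, 1 more was lower with DEM in mock cells and a different 1 in T-N2G cells. The call of Aldh1l2 was lost without any mock DEM library, mock vehicle replicate 1 or 3, T-N2G DEM replicate 1 or 3, or T-N2G vehicle replicate 1 (adjusted p up to 0.141). With the block 2 of the 9 were lower in T-N2G cells with DEM and 1 with vehicle (background 9.32% and 3.24% lower). It called 1 higher and 4 lower with DEM in T-N2G cells (background 22.8% and 22.2%), and 2 higher and 2 lower in mock cells (20.9% and 21.9%).

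Of 23 oxidoreductases outside the 2 families 20 were tested, and with DEM 4 exceeded their mock level in T-N2G cells and 1 lay below it. Nqo1, a quinone reductase and classic Nrf2 target, averaged 101 against 5.75 CPM (log2 fold change 4.13 ± 0.26, edgeR adjusted p = 1.82e-06). Ptgr1, which reduces alkenals, averaged 66.9 against 19.8 CPM (1.76 ± 0.14, 1.29e-05), Cbr3, a carbonyl reductase, 15.9 against 6.46 CPM (1.30 ± 0.14, 0.000135), and Adh7, a retinol dehydrogenase, 28.8 against 14.6 CPM (0.97 ± 0.16, 0.00407). Dhrs7b was the lower one (-0.30 ± 0.07, 0.0441). With vehicle Nqo1 alone was called (15.9 against 3.93 CPM, 2.01 ± 0.27, 0.00741). With DEM in T-N2G cells Nqo1, Ptgr1, Cbr3 and Dhrs7b rose (2.66, 0.99, 0.58 and 0.24) and Dcxr, a xylulose and dicarbonyl reductase, fell (by 1.33). In mock cells Dcxr (-1.23) and Adh5 (-0.26) fell and Dhrs7b rose (0.35). The DEM effect was larger in T-N2G cells for Ptgr1 and Nqo1 (1.35 ± 0.20 and 2.12 ± 0.37, adjusted p = 0.0110 and 0.0311). Without 1 library the calls of Nqo1, Ptgr1, Cbr3 and Adh7 for T-N2G over mock with DEM held in every case, as did those of Nqo1 and Ptgr1 with DEM in T-N2G cells, of Dcxr in both cell types and of Dhrs7b in mock cells. On replicates 1 and 2 only, these calls of Dcxr and Dhrs7b were lost. Nqo1 with vehicle ended on leaving out mock vehicle replicate 3 (adjusted p = 0.0610), and Cbr3 with DEM without T-N2G DEM replicate 1 or 3 (up to 0.0578). The larger effect of Ptgr1 was lost without mock DEM replicate 1 (0.0511), and that of Nqo1 without any 1 library other than mock DEM replicate 2, T-N2G vehicle replicate 3 and mock vehicle replicate 1 (up to 0.121). Adh5 was lost without any mock library or T-N2G vehicle replicate 3 (up to 0.135) and with no filter on low counts. Dhrs7b with DEM in T-N2G cells was lost without any 1 library other than mock DEM replicate 3 (up to 0.150), and for T-N2G over mock without any 1 other than mock DEM replicate 1 and T-N2G vehicle replicates 2 and 3 (up to 0.184). Both of these calls of Dhrs7b were lost with no filter on low counts, and that with DEM in T-N2G cells with DESeq2 and with the block on replicates 1 and 2 only. With the block 5 of the 20 were higher and 4 lower in T-N2G cells with DEM (background 10.3% and 9.32%), and 2 higher and 3 lower with vehicle (3.06% and 3.24%). It called 5 higher and 5 lower with DEM in T-N2G cells (background 22.8% and 22.2%). In mock cells it called 4 higher and 9 lower with DEM (20.9% and 21.9%). A higher DEM effect in T-N2G cells was called for 4 (1.82%).

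Sord, the sorbitol dehydrogenase that follows aldose reductase, was at 51.8, 56.9 and 71.3 CPM in DEM-treated T-N2G cells against 33.8, 38.2 and 35.7 CPM in DEM-treated mock cells (log2 fold change 0.74 ± 0.12, edgeR adjusted p = 0.00406), and it rose with DEM in T-N2G cells (0.61 ± 0.12, 0.00601). It was 1 of 5 tested of 6 polyol and methylglyoxal genes and the only 1 called. Of 9 retinoid handling genes 3 were tested, and Crabp1, a retinoic acid binding protein, fell with DEM in T-N2G cells (by 0.40, adjusted p = 0.0336). Of 8 lysine, betaine and carnitine genes 3 were tested. Of these Aass and Gcdh, enzymes of lysine breakdown, fell with DEM in mock cells (by 2.08 and 0.25, adjusted p = 0.0386 and 0.0461). Aass was scarce, at 0.194 CPM on average with DEM against 0.855 CPM with vehicle, and its groups overlapped. It passed the low-count filter only through vehicle libraries, and every DEM library was at or under 0.302 CPM. Its fall is thus measured from the condition that let it be tested, and the counts of this list include it. With the block 2 polyol genes were higher in T-N2G cells with DEM and 1 had a higher DEM effect there (background 10.3% and 1.82%). It called 1 retinoid gene lower in T-N2G cells with DEM and 1 lower with DEM in mock cells (9.32% and 21.9%). Also, 2 lysine genes were lower with DEM in T-N2G cells (22.2%). The calls of Sord held without any 1 library but were lost on replicates 1 and 2 only (edgeR adjusted p = 0.166 and 0.102). That of Crabp1 was lost without T-N2G DEM replicate 3 or T-N2G vehicle replicate 1 or 2 (adjusted p up to 0.112). That of Aass was lost without any mock DEM library, mock vehicle replicate 2 or 3, or T-N2G vehicle replicate 1 or 3 (up to 0.134), and also with DESeq2 and with limma on either pseudocount. That of Gcdh was lost without any 1 library other than T-N2G DEM replicates 2 and 3 (up to 0.152) and with no filter on low counts. With DEM, the median log2 difference between T-N2G and mock cells was 0.17 for the other aldo-keto reductases, -0.070 for the other aldehyde dehydrogenases, -0.062 for the other oxidoreductases, 0.0093 for the polyol list, -0.097 for the retinoid list and -0.24 for the lysine list, against -0.0050 for all tested genes. For DEM in T-N2G cells the medians were 0.18, -0.14, 0.078, 0.094, -0.41 and -0.23 in that order, against -0.0048.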

How the data were processed

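Polyadenylated RNA from 12 libraries was sequenced. RNA was extracted with RNeasy Mini and libraries made with the SureSelect strand-specific kit, per the labels' protocols. The submitters' processing notes name bcl2fastq 2.16.0.10, TopHat2 2.0.8b, Cuffdiff 2.1.1 and build mm9, with roles, strand setting and annotation not given in the sources used here. The authors' deposited table holds estimated counts of fragments per gene and library (98.3% of values whole, tolerance 0, and 917 genes with a value that is not) and FPKM as the authors deposited them. Its 2 other columns per library were not used. Conditions were matched to sample titles through the key that the series text gives.

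Estimated counts were rounded and fitted with edgeR 4.0.16 in R 4.3.3 (TMM, filterByExpr with minimum count 10 and total 15, quasi-likelihood F test, all 12 libraries in 1 fit, 5 contrasts). A call is a Benjamini-Hochberg adjusted p under 0.05 over 12469 genes. CPM used effective library sizes, and SE is the log2 fold change over the root of F. Alternatives used DESeq2 1.42.0, DESeq2 size factors, no filter, limma 3.58.1 on log2(FPKM + 1) and on log2(FPKM + 0.1), the replicate block, replicates 1 and 2 only, and each library left out. Added after seeing the data were the same settings for called list genes, the block on replicates 1 and 2 only and the sum of Akr1b3 and Gm6644.

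Same-numbered libraries deviated together: r of the deviations from the group means was 0.361 to 0.631 over 18 pairs, so replicate numbers, taken from the sample titles, pair the libraries. Over 36 pairs with different numbers r was -0.422 to -0.00363. Deviations from a group mean cancel out within the group, so these negative values follow from the positive ones and are no separate support. Genes were named as follows: all members, up to 4 called genes per list and contrast by smallest adjusted p, and the 3 tested genes most like each called member. Aldh1a7, Akr1b7 and Gm6644 were named after their values were seen. Members and lists were chosen with earlier results of these data known. Promoters come from RefSeq (GRCm38.p6), with an entry for 5 of the 9 genes, and coding identity from GENCODE M21 with blastn 2.17.0 and Biopython 1.88.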

Additional observations from a re-analysis of the deposited data

Results flagged for a closer look

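The DEM effect on Aldh2 was larger in T-N2G than in mock cells by 0.34 on the log2 scale with the replicate block (edgeR adjusted p = 0.0104). It drew attention because the response to DEM differed between the cell types in a test of the difference itself. The fit without the block gave 0.34 with an adjusted p of 1.00, and leaving out 1 library at a time without the block gave 0.16 to 0.47. All 3 pairs had the same direction. Of 20 alternatives only the block on all libraries called this difference, and the block on replicates 1 and 2 only did not. Leaving out 1 library was not run with the block. The cause was not tested.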

How the results depend on the processing

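Of 805 recomputed values of the 8 tested genes 784 kept their direction, and none of the 6 called contrasts changed direction. The 21 values that changed sign belong to contrasts not called, and 1 of them was itself a call, the sum of Akr1b3 with Gm6644 for DEM in T-N2G cells. All 6 calls were lost on replicates 1 and 2 only (adjusted p 0.0941 to 0.336). Among the list genes, the calls that held there were those of Nqo1, Ptgr1, Cbr3 and Adh7 for T-N2G over mock with DEM. Those of Nqo1, Ptgr1 and Crabp1 for DEM in T-N2G cells held too, and every other list call was lost. For T-N2G over mock with DEM, Aldh3a2 was -0.0081 without a filter, -0.011 on replicates 1 and 2 only with or without the block, and -0.042 to 0.029 without 1 library, and Akr1b3 was -0.079 to 0.95 without 1 library. With vehicle, Aldh9a1 was -0.020 to 0.097 without 1 library, and the sum of Akr1b3 with Gm6644 gave 0.035. For DEM that sum gave -0.33 in T-N2G cells, and Aldh2 in mock cells was -0.26 to 0.038 without 1 library. The difference of the DEM effects was -0.11 to 0.29 for Akr1b10 and -0.053 to 0.093 for Aldh7a1 without 1 library.

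The replicate block moved the genes called higher and lower to 1283 and 1162 for T-N2G over mock with DEM (325 and 138 without the block), to 381 and 404 with vehicle (38 and 1), to 2846 and 2769 for DEM in T-N2G cells (1254 and 941), to 2603 and 2736 in mock cells (967 and 770), and to 227 and 122 for the difference (52 and 2). In the same order, the block on replicates 1 and 2 only gave 866 and 715, 182 and 113, 2382 and 2258, 2139 and 2223, and 133 and 62. Replicates 1 and 2 only, without the block, gave 117 and 22, 5 higher with vehicle, 305 and 174, 57 and 67, and 6 and 0. DESeq2 gave 258 lower with DEM, 82 and 26 with vehicle, and 83 and 15 for the difference. limma on log2(FPKM + 1) gave 25 higher with vehicle. No filter gave 3 lower with vehicle and 1 for the difference. Without 1 library the ranges were 212 to 325 and 63 to 150, 14 to 41 and 0 to 3, 756 to 1200 and 568 to 966, 521 to 1016 and 380 to 770, and 22 to 51 and 1 to 3. The cause was not tested. The block on all libraries changed no member's call other than those given beside the results. On replicates 1 and 2 only, the block also called Aldh9a1 for T-N2G over mock with DEM (0.21, edgeR adjusted p = 0.0384). It called Akr1b3 there for DEM in T-N2G cells (2.80, adjusted p = 0.0203), opposite in sign to the sum with Gm6644 (-0.33). Aldh3a1 was too low to be tested, and low fragment counts limit the precision for Aldh1a1, Akr1b10 and Akr1b3.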
